A study of Homo sapiens with 8 samples.

Results

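The 8 genes described here, PHOX2A, HAND1, HAND2, GATA2, GATA3, ISL1, TBX2 and INSM1, encode transcription factors of the sympathoadrenal lineage and of noradrenergic neuroblastoma, and were taken by symbol as 8 of the 60676 Ensembl genes counted. Whole-transcriptome RNA sequencing was performed on IGR-N91 cells, one human neuroblastoma cell line, grown as hanging-drop aggregates in 4 media with 2 libraries each. Control medium was serum-containing DMEM in which no tissue had been cultured. E8-cSGcm and E8-cDRGcm were the same base medium conditioned by sympathetic ganglia or by dorsal root ganglia of chick embryos, and E15.5-mSGcm by sympathetic ganglia of mouse embryos, with the embryonic day in the name. Exposure lasted 20 h according to the sample records and 24 h according to the series description. The records do not say whether the libraries of a group came from separate cultures, so that p-values measure only the spread between these libraries, which may be technical, and all values belong to a single line. Total counts ranged from 7930765 to 15060744 per library, with E15.5-mSGcm lowest in both libraries, at 7930765 and 8937397.

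PHOX2A is a homeodomain factor of autonomic neurons, and HAND1 and HAND2 are basic helix-loop-helix factors that bind DNA together with E proteins. GATA2 and GATA3 are zinc finger factors, ISL1 is a LIM homeodomain factor, TBX2 is a T-box repressor and INSM1 is a zinc finger factor of neuroendocrine precursors. In developing sympathetic ganglia such factors act downstream of BMP signals and switch on the enzymes and transporters of noradrenaline, and in noradrenergic neuroblastoma cells several of them bind one another's enhancers in what is called a core regulatory circuit.

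Of the 8 genes, 7 passed the filter on low counts among 16680 tested genes, and INSM1 did not. A gene was called changed at an adjusted p under 0.05 with a fold change of at least 1.5, by edgeR's quasi-likelihood test adjusted over all 16680 genes. GATA2, HAND1 and TBX2 fell in all 3 conditioned media by this rule, with GATA2 in E15.5-mSGcm at the threshold itself. PHOX2A and ISL1 fell in E8-cDRGcm. GATA3 was lower in each medium by less than the required fold, and HAND2, the most abundant per length, was lower in E15.5-mSGcm, again by less than that fold, and did not pass the test in the chick media. None of the 7 was called higher against control medium. Since the aggregates were measured in bulk, fewer cells expressing a gene and less RNA per cell cannot be told apart.

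Sequences around start sites are shown for GATA2, which had the largest decrease, and for the paralogues HAND1 and HAND2, of which only HAND1 was called. RefSeq windows on GRCh38.p14, from 250 bases before to 50 bases after an annotated start, matched 6 of the 8 genes by symbol, and TBX2 and INSM1 were not among them. The windows below are written 5′ to 3′ on the strand of the gene, and capitals mark matches to GATA words (AGATAA, or its forms beginning with T or ending in G), E-boxes (CANNTG) or TAATTA, each read on both strands. GATA2 has 2 windows, at chr3:128493152-128493451 and chr3:128488481-128488780, and the counts do not tell its start sites apart. The HAND1 window is chr5:154478178-154478477 and the HAND2 window is chr4:173530180-173530479, all on the minus strand.
GATA2 upstream start: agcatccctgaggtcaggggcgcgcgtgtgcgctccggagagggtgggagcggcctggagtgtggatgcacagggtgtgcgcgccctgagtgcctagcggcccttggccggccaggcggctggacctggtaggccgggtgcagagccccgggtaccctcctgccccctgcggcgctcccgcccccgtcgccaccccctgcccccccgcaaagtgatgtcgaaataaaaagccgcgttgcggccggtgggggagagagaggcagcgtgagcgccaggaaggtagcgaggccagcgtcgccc
GATA2 downstream start: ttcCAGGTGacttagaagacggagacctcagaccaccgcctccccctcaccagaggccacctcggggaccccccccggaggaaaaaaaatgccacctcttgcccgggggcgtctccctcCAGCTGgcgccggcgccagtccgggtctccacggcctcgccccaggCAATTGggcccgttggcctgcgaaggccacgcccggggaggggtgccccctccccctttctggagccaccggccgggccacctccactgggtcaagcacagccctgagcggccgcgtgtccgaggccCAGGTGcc
HAND1: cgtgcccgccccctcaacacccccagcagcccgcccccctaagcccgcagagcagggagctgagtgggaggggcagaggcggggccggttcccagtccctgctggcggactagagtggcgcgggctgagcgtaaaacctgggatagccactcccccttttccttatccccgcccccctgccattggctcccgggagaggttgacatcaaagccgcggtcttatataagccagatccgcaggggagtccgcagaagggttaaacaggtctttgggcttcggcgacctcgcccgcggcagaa
HAND2: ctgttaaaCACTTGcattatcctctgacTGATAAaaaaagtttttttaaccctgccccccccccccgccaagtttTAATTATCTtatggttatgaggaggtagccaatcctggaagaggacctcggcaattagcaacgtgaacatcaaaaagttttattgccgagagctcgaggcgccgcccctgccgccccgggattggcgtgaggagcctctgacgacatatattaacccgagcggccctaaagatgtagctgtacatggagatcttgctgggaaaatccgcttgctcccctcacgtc

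The upstream GATA2 window held no match, and the downstream one held 4 E-boxes, the sequence that helix-loop-helix dimers recognize. The HAND1 window held none of the 3 motifs. In the HAND2 window there were 2 GATA words, 1 E-box and 1 TAATTA, and the TAATTA overlapped a GATA word. The ISL1 window also held 2 GATA words and 1 E-box, and that of PHOX2A 1 E-box. GATA3 has several windows, none with a GATA word or TAATTA. Its E-boxes lay in the windows that start at chr10:8050986, with 2, and chr10:8054438, with 1. Among 34796 RefSeq windows of the same length, 25.0% held a GATA word, 68.7% an E-box and 4.86% TAATTA. These windows differed in base composition, with a GC content of 72.3% and 71.3% at the GATA2 starts, 66% at HAND1 and 50.3% at HAND2.

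Per length, which allows genes to be compared, HAND2 led in control medium at 201 ± 5.88 RPKM (SD, n = 2), where RPKM are TMM-normalized counts scaled by library size (CPM) and divided by kilobases of annotated exon. GATA2 followed at 154 ± 3.07 RPKM, PHOX2A at 114 ± 1.85, HAND1 at 79.4 ± 1.62 and TBX2 at 57.2 ± 0.487. ISL1 at 46.3 ± 1.29 RPKM and GATA3 at 44.2 ± 2.44 RPKM were within their spread of each other. In E8-cDRGcm HAND2 stood at 203 ± 6.69 RPKM and PHOX2A at 55.7 ± 2.37, while GATA3 at 37.8 ± 2.12, GATA2 at 36.7 ± 0.432 and HAND1 at 36.4 ± 3.27 RPKM could no longer be ordered beyond their spread. GATA2 thus left the second place it held in control medium.

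Summed over the 8 genes, the level per length was 695 and 698 RPKM in the control libraries. It was 471 and 505 RPKM in E8-cSGcm, 429 and 426 in E8-cDRGcm, and 493 and 475 in E15.5-mSGcm, so that no conditioned library reached a control library. HAND2 made up 29.5% and 28.2% of this sum in control medium, 39.5% and 40.5% in E8-cSGcm and 48.3% and 46.4% in E8-cDRGcm. In E15.5-mSGcm its share was 29.6% and 30.1%, near that in control medium. GATA2 went from 21.9% and 22.4% of the sum in control medium to 8.62% and 8.53% in E8-cDRGcm, and stood at 21.0% and 21.4% in E15.5-mSGcm.

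**Figure D1:**
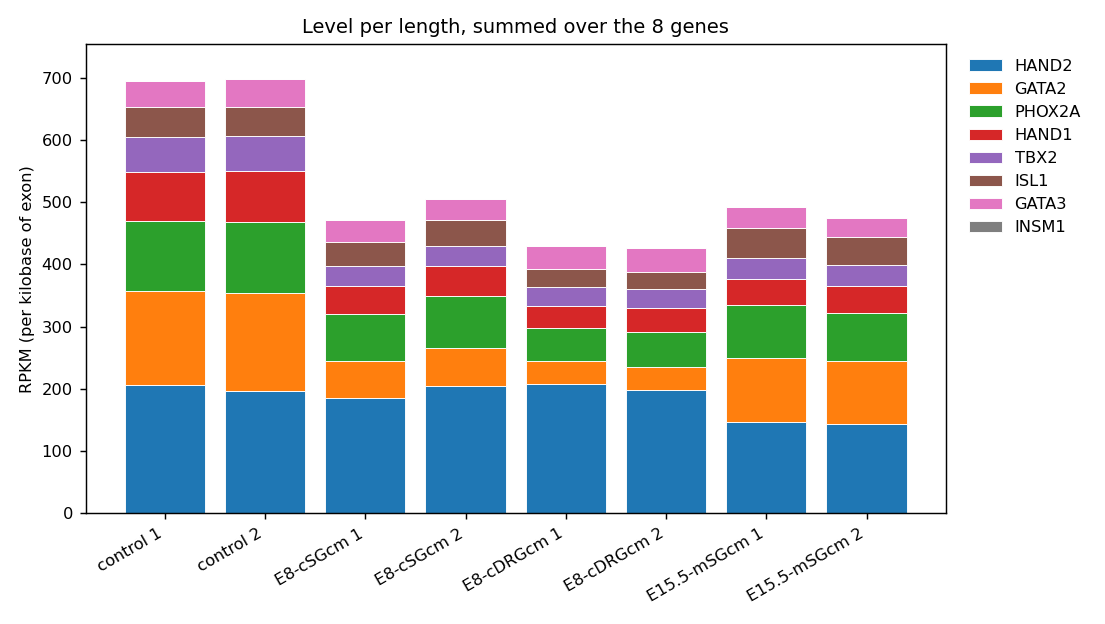
Stacked bars give the level per kilobase of exon (RPKM, y axis from 0) of the 8 genes in each of the 8 libraries. The control bars reach 695 and 698 RPKM and the conditioned bars 426 to 505, with a HAND2 segment of similar height in the control and both chick media and too little INSM1 to be seen.

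The homeodomain factor PHOX2A (ENSG00000165462, chromosome 11, 71950121 to 71956708, GRCh37) had 2635 and 3135 counts in control medium, 1680 and 2146 in E8-cSGcm, 1290 and 1399 in E8-cDRGcm and 1181 and 1215 in E15.5-mSGcm. Its normalized level was 201 and 206 CPM in control medium, 134 and 150 in E8-cSGcm, 96.3 and 102 in E8-cDRGcm and 151 and 139 in E15.5-mSGcm. Every conditioned library lay below both control libraries, and E8-cSGcm and E15.5-mSGcm overlapped. PHOX2A fell in E8-cDRGcm by 2.05-fold (log2 fold change -1.03 ± 0.058 SE, adjusted p = 1.92e-17). In E8-cSGcm its log2 fold change was -0.52 ± 0.057 (adjusted p = 3.51e-09) and in E15.5-mSGcm -0.49 ± 0.059 (adjusted p = 1.39e-08), both short of the 1.5-fold threshold. Without the second E8-cSGcm library the first of these values was -0.60 and passed.

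HAND1 (ENSG00000113196, chromosome 5, 153854532 to 153857787) is known for roles in heart and extraembryonic tissue as well as in sympathetic cells. Its counts were 1743 and 2086 in control medium, 961 and 1170 in E8-cSGcm, 777 and 901 in E8-cDRGcm and 558 and 649 in E15.5-mSGcm. Normalized, these were 133 and 137 CPM, 76.9 and 81.8 CPM, 58.0 and 65.9 CPM, and 71.4 and 74.0 CPM, with no overlap between any of the 4 groups. HAND1 was 1.70-fold lower in E8-cSGcm, 2.18-fold lower in E8-cDRGcm and 1.86-fold lower in E15.5-mSGcm than in control medium. The 95% intervals of these log2 fold changes were -0.89 to -0.64, -1.25 to -0.996 and -1.03 to -0.76.

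HAND2 (ENSG00000164107, chromosome 4, 174446120 to 174451380), which drives the noradrenergic program of sympathetic neurons, had another order of levels than its paralogue. It gave 9689 and 10809 counts in control medium, 8369 and 10542 in E8-cSGcm, 10006 and 9750 in E8-cDRGcm and 4110 and 4514 in E15.5-mSGcm. The normalized levels of 740 and 710 CPM in control medium, 670 and 737 in E8-cSGcm and 747 and 713 in E8-cDRGcm overlapped, whereas E15.5-mSGcm lay below them all at 526 and 515 CPM. With chick medium, the difference from control was bounded by 95% intervals of -0.14 to 0.058 on the log2 scale for E8-cSGcm (adjusted p = 0.566) and -0.089 to 0.11 for E8-cDRGcm (adjusted p = 0.875). In E15.5-mSGcm the log2 fold change was -0.48 ± 0.051 (adjusted p = 8.64e-10), under the 1.5-fold threshold.

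**Figure D2:**
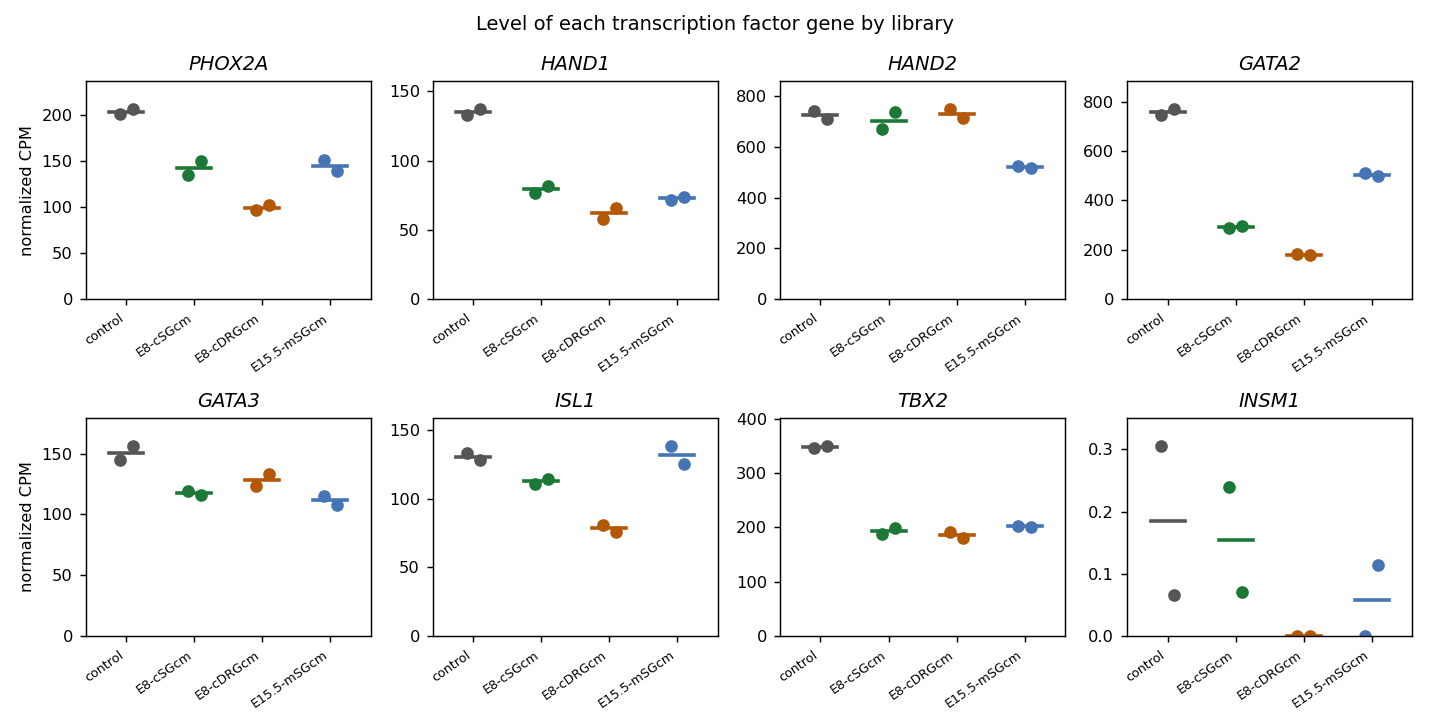
Each panel shows normalized CPM (y axis from 0, scaled per gene) in the 2 libraries of each medium as points, with the group mean as a line. GATA2, HAND1, TBX2, PHOX2A and GATA3 lie below both control libraries in every conditioned library. HAND2 does so in both libraries of a medium only in E15.5-mSGcm, and INSM1 is at most 0.305 CPM.

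GATA2 (ENSG00000179348, chromosome 3, 128198270 to 128212044), a factor of blood progenitors that also acts early in sympathetic precursors, gave 9795 and 11714 counts in control medium. Counts were 3622 and 4250 in E8-cSGcm, 2434 and 2444 in E8-cDRGcm and 3984 and 4387 in E15.5-mSGcm. After normalization the groups were widely separated, at 748 and 769 CPM in control medium, 510 and 500 in E15.5-mSGcm, 290 and 297 in E8-cSGcm and 182 and 179 in E8-cDRGcm. GATA2 fell 2.58-fold in E8-cSGcm (log2 fold change -1.37 ± 0.047, adjusted p = 5.93e-23) and 4.21-fold in E8-cDRGcm (-2.07 ± 0.049, adjusted p = 8.78e-29), and ranked number 3 by p among the 16680 genes in both comparisons. The decrease in E15.5-mSGcm was 1.502-fold (-0.59 ± 0.047, adjusted p = 6.81e-13) and sat at the fold threshold of 0.58 on the log2 scale. That call was lost, at -0.58 each time, when the second control, the first E8-cDRGcm or the second E15.5-mSGcm library was left out.

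GATA3 (ENSG00000107485, chromosome 10, 8087341 to 8117161), the paralogue required in later sympathetic neurons, varied less. Its counts of 1892 and 2378 in control medium compared with 1491 and 1654 in E8-cSGcm, 1653 and 1827 in E8-cDRGcm and 903 and 944 in E15.5-mSGcm. Normalized levels were 144 and 156 CPM in control medium, 119 and 116 in E8-cSGcm, 123 and 134 in E8-cDRGcm and 115 and 108 in E15.5-mSGcm, so that each conditioned library was below both controls. The log2 fold changes of -0.36 ± 0.057, -0.23 ± 0.057 and -0.43 ± 0.061 were all short of 1.5-fold, with adjusted p of 6.24e-06, 0.00108 and 3.68e-07.

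The counts of ISL1 (ENSG00000016082, chromosome 5, 50679282 to 50690564), which is needed in sensory as well as sympathetic neurons, were 1742 and 1947 in control medium, 1381 and 1639 in E8-cSGcm, 1082 and 1039 in E8-cDRGcm and 1081 and 1100 in E15.5-mSGcm. Normalized levels of 133 and 128 CPM in control medium overlapped those of 138 and 125 CPM in E15.5-mSGcm. E8-cSGcm was lower at 111 and 115 CPM, and E8-cDRGcm was lowest at 80.8 and 76.0 CPM. ISL1 fell 1.66-fold in E8-cDRGcm (log2 fold change -0.73 ± 0.060, adjusted p = 5.32e-13). It was -0.21 ± 0.058 in E8-cSGcm (adjusted p = 0.00444) and 0.015 ± 0.059 in E15.5-mSGcm (95% interval -0.11 to 0.14, adjusted p = 0.874).

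TBX2 (ENSG00000121068, chromosome 17, 59477204 to 59486827), known as a repressor of cell cycle inhibitors, was called lower in each medium. It had 4531 and 5332 counts in control medium, 2356 and 2853 in E8-cSGcm, 2569 and 2465 in E8-cDRGcm and 1586 and 1765 in E15.5-mSGcm. This corresponded to 346 and 350 CPM in control medium, 189 and 199 in E8-cSGcm, 192 and 180 in E8-cDRGcm and 203 and 201 in E15.5-mSGcm. TBX2 was lower by 1.79-fold in E8-cSGcm, 1.87-fold in E8-cDRGcm and 1.72-fold in E15.5-mSGcm (log2 fold changes -0.84 ± 0.050, -0.90 ± 0.050 and -0.78 ± 0.052, adjusted p = 4.92e-16, 1.31e-17 and 3.61e-15). Correction for GC content and exon length brought the value in E15.5-mSGcm to -0.52, short of the fold threshold.

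INSM1 (ENSG00000173404, chromosome 20, 20348748 to 20351593) had 4 and 1 counts in control medium, 3 and 1 in E8-cSGcm, 0 and 0 in E8-cDRGcm and 0 and 1 in E15.5-mSGcm. A limit of 3 counts corresponds to 0.197 to 0.384 CPM in these libraries, for counting error only, and no fold change was computed. A low listing does not show that the transcript was missing, because TUBB, a tubulin gene that every cell uses, was listed at 0 in all 8 libraries. The paralogue INSM2 was well covered, with 3253 to 3846 counts in control medium.

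Read against all tested genes, 3 of the 7 members were called lower in E8-cSGcm, where 3.86% of all genes were called lower and 4.73% higher. In E8-cDRGcm 5 of 7 were called lower, against 10.9% of all genes lower and 9.81% higher, and in E15.5-mSGcm 3 of 7, against 7.27% lower and 6.65% higher. At the adjusted p alone, 6 of 7 were lower in each medium, where 15.2%, 24.7% and 20.0% of all genes were lower. The median log2 fold change of the 7 was -0.52 in E8-cSGcm, -0.90 in E8-cDRGcm and -0.49 in E15.5-mSGcm, beside medians over all tested genes of 0.010, 0.0055 and -0.015. The 3 comparisons share the same control libraries and are not independent of each other. The members were chosen with earlier results of these data known, so that these shares are a description and not a test. The 7 members are also well covered, whereas the tested genes include some with few counts.

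**Figure D3:**
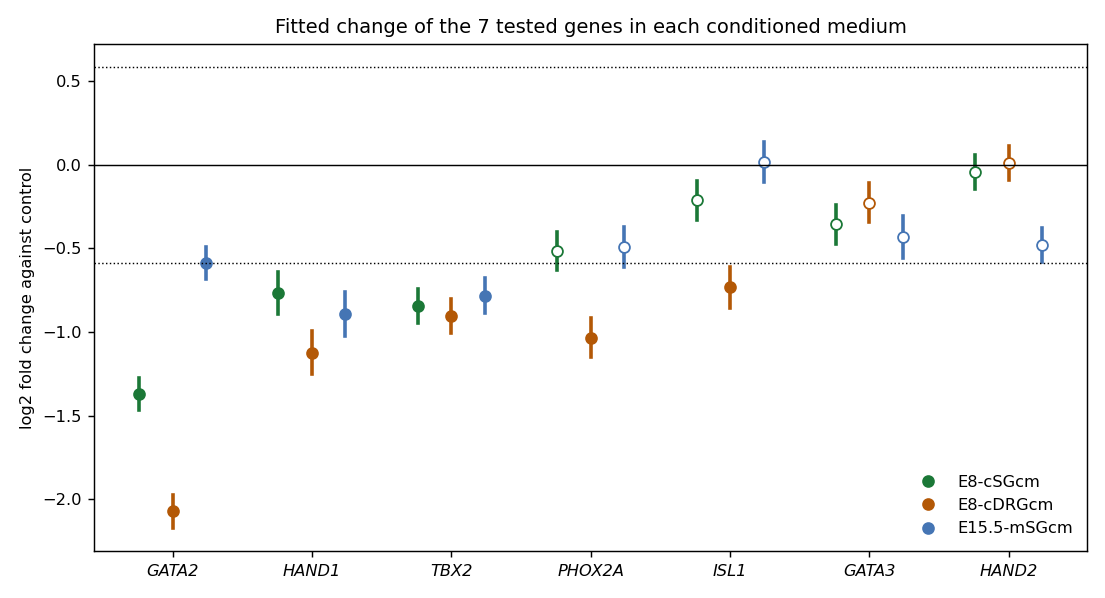
Points are log2 fold changes against control medium fitted by edgeR, lines their 95% intervals, filled points genes called lower and dotted lines the 1.5-fold threshold. GATA2 ranges from -0.59 to -2.07 across the media, TBX2 only from -0.78 to -0.90, and the HAND2 intervals in both chick media include 0.

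The conditioned media were then compared with each other. Between the chick media, GATA2 was the only member called, 1.63-fold lower in E8-cDRGcm than in E8-cSGcm (log2 fold change -0.70 ± 0.049, adjusted p = 8.96e-14), where 4.87% of all genes were called lower and 2.62% higher. ISL1 and PHOX2A were both lower there by 1.44-fold and 1.43-fold (adjusted p = 1.52e-08 and 1.25e-08), just short of the threshold, and PHOX2A passed at -0.60 without the first E8-cSGcm library. HAND1 differed by -0.36 ± 0.066 (adjusted p = 5.55e-05). HAND2, GATA3 and TBX2 differed by 0.053, 0.13 and -0.061, with 95% intervals of -0.047 to 0.15, 0.012 to 0.25 and -0.17 to 0.043. At the adjusted p alone 4 of 7 members were lower, where 15.47% of all genes were.

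Between the sympathetic media of mouse and chick, GATA2 was again the single member called, 1.72-fold higher in E15.5-mSGcm (log2 fold change 0.78 ± 0.048, adjusted p = 2.31e-16), where 12.1% of all genes were called lower and 10.2% higher. HAND2 had the opposite sign at -0.44 ± 0.051 (adjusted p = 3.86e-09), and at -0.21 after correction for GC content and exon length. PHOX2A, at 0.023 with a 95% interval of -0.099 to 0.15, and TBX2, at 0.058 with -0.049 to 0.17, did not pass the test, but after that correction they stood at 0.46 and 0.39 (adjusted p = 5.27e-09 and 1.67e-08). At the adjusted p alone 1 of 7 members was lower and 2 were higher, where 25.9% of all genes were lower and 23.9% higher. Against E8-cDRGcm, GATA2 was 2.80-fold higher and ISL1 1.68-fold higher in E15.5-mSGcm (adjusted p = 2.83e-24 and 6.96e-13), where 13.1% of all genes were called lower and 13.1% higher. PHOX2A was higher by 0.54 ± 0.062 and passed the fold threshold at 0.60 without the second E15.5-mSGcm library and at 0.88 after the correction, and HAND2 was lower by -0.49 ± 0.051. At the adjusted p alone 2 of 7 were lower and 4 higher, where 26.8% of all genes were lower and 25.8% higher.

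The members had different orders of levels over the media. GATA2 descended from control medium through E15.5-mSGcm and E8-cSGcm to E8-cDRGcm, and every neighboring pair in that order was called different. The call between control medium and E15.5-mSGcm sat at the fold threshold and was lost under 9 of 17 alternatives. After the GC and length correction that difference was -0.33. For ISL1 the order was E15.5-mSGcm, control medium, E8-cSGcm and E8-cDRGcm, and its highest neighbors did not differ beyond their spread. PHOX2A was highest in control medium and lowest in E8-cDRGcm, with E15.5-mSGcm and E8-cSGcm between them and overlapping, though not after the GC and length correction, as given above. HAND1 ran from control medium over E8-cSGcm and E15.5-mSGcm, which did not pass the test against each other (adjusted p = 0.127), to E8-cDRGcm. The conditioned media could not be ordered for TBX2, whose 3 pairwise adjusted p were 0.404, 0.380 and 0.0565, whereas after the correction E15.5-mSGcm stood above E8-cSGcm by 0.39 and above E8-cDRGcm by 0.38 (adjusted p = 1.67e-08 and 3.01e-08). For GATA3, which was highest in control medium, only E15.5-mSGcm and E8-cDRGcm differed among the conditioned media (adjusted p = 0.00486), and after the correction E8-cDRGcm and E8-cSGcm did instead (adjusted p = 0.0649 and 0.00125).

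Ratios within a library, here and below, do not depend on its depth, but they were not corrected for GC content. There were 5.18 and 4.93 GATA2 counts for each GATA3 count in control medium, 2.43 and 2.57 in E8-cSGcm, 1.47 and 1.34 in E8-cDRGcm and 4.41 and 4.65 in E15.5-mSGcm. Per length the ratio was 3.58 and 3.40 in control medium and 1.02 and 0.924 in E8-cDRGcm, so that both GATA genes came to a like level per length in that medium. HAND1 counts were 18.0% and 19.3% of HAND2 counts in control medium, 11.5% and 11.1% in E8-cSGcm, 7.77% and 9.24% in E8-cDRGcm and 13.6% and 14.4% in E15.5-mSGcm, without overlap between groups. PHOX2A counts were 27.2% and 29.0% of HAND2 counts in control medium and 28.7% and 26.9% in E15.5-mSGcm, which overlapped, and 12.9% and 14.3% in E8-cDRGcm.

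**Figure D4:**
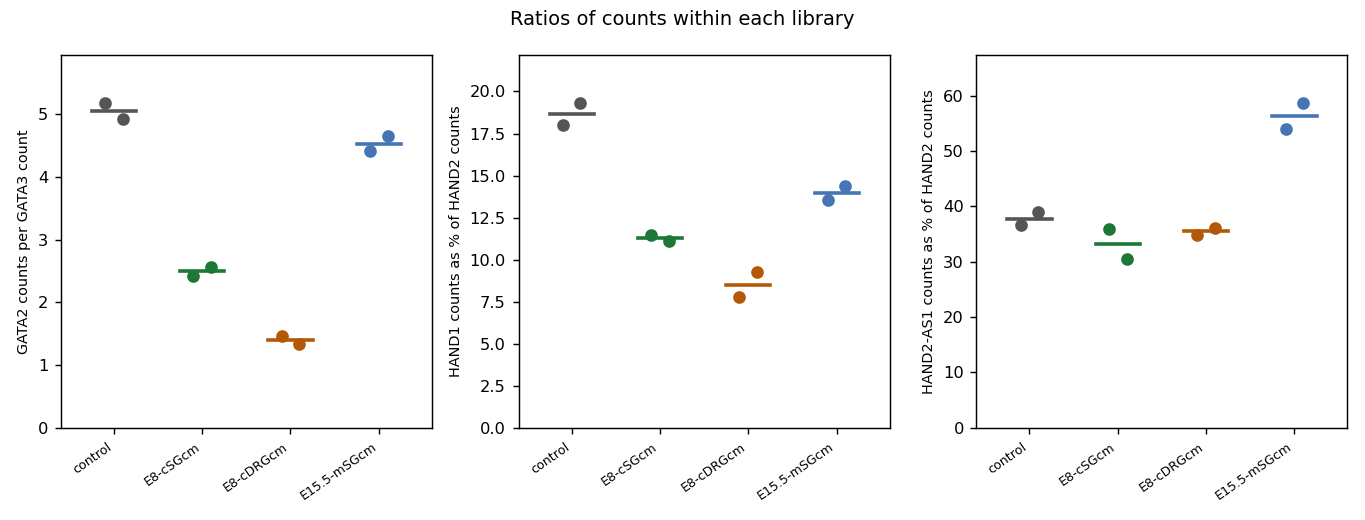
Panels show, for each library, GATA2 counts per GATA3 count, HAND1 counts as a percentage of HAND2 counts, and HAND2-AS1 counts as a percentage of HAND2 counts (y axes from 0, points are libraries and lines group means). The GATA2 to GATA3 ratio is 4.93 and 5.18 in control medium and 1.34 and 1.47 in E8-cDRGcm, and the HAND2-AS1 percentage is highest in E15.5-mSGcm.

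When GC content and exon length were corrected for within libraries, the values of E15.5-mSGcm moved. The log2 fold changes against control medium were -0.33 for GATA2, -0.52 for TBX2, -0.74 for HAND1, -0.19 for PHOX2A, -0.30 for HAND2 and -0.30 for GATA3, and of the 3 members called lower only HAND1 remained past the fold threshold, where 5.80% of all genes were called lower (5.76% with the replicate number added as a block), although all 6 kept an adjusted p under 0.05. The exons of PHOX2A, TBX2 and GATA2 have a GC content of 66.1%, 62.2% and 61.1%, and those of ISL1 45.2%. In E8-cSGcm the correction moved PHOX2A to -0.64, past the threshold, and in E8-cDRGcm it changed no call. The 2 E15.5-mSGcm libraries were the shallowest, and with all libraries thinned to the smallest total GATA2 in E15.5-mSGcm stood at -0.58, marginally short of the threshold, and TBX2 and HAND1 kept their calls.

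**Figure D5:**
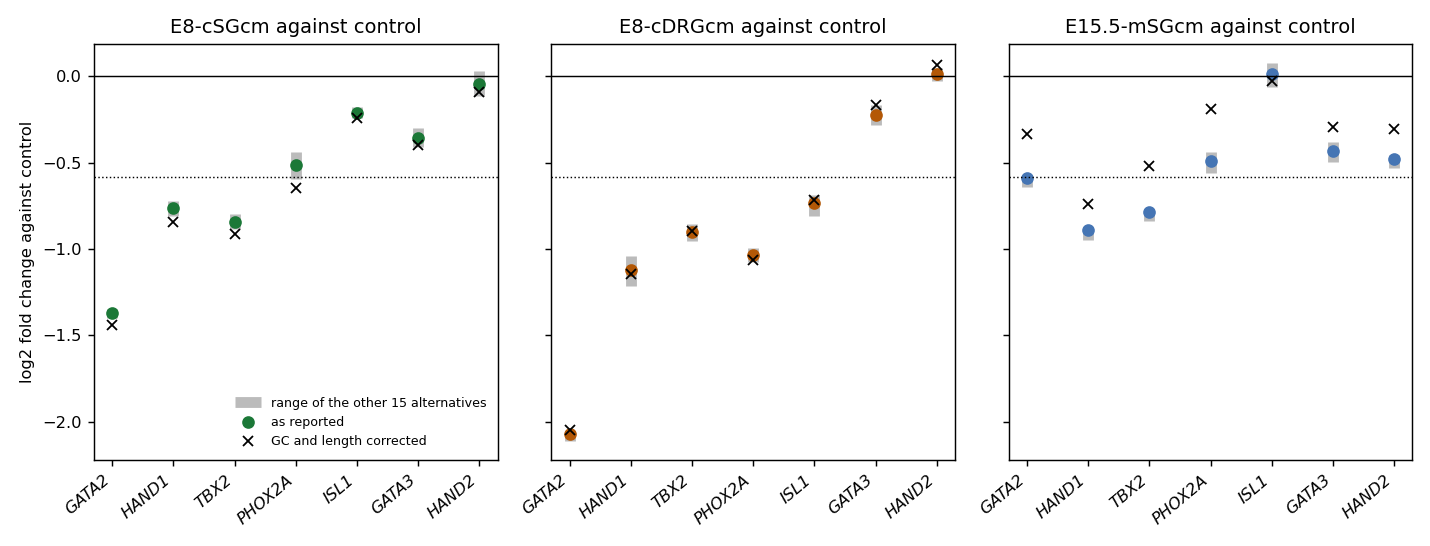
For each conditioned medium, colored points give the reported log2 fold change against control medium, crosses the value after correction for GC content and exon length, and gray bars the range over the other 15 alternatives, with the 1.5-fold threshold dotted. The crosses lie above the points for 6 of the 7 genes in E15.5-mSGcm, where GATA2 moves from -0.59 to -0.33. In E8-cSGcm PHOX2A moves from -0.52 to -0.64, past the threshold.

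Other genes of the noradrenergic circuit were examined as lists. Of 4 further genes in the study's restricted noradrenergic set, KLF13, a zinc finger factor, fell in both chick media (log2 fold changes -0.66 and -0.93, adjusted p = 0.0458 and 0.00360) and was at -0.58 in E15.5-mSGcm (adjusted p = 0.1099). KLF13 was low, with 47 to 55 counts in control medium, 25 to 36 in E8-cSGcm and 23 to 28 in E8-cDRGcm. KLF7 stood at -0.46, -0.40 and -0.27, SOX11 at -0.29, -0.48 and -0.46, and PBX3 at -0.082, -0.058 and -0.087, none of them called. The list medians were -0.38, -0.44 and -0.37. Medians and counts called, for this list and those that follow, are to be read beside the medians and shares over all genes given above. Values of all these genes, also in E15.5-mSGcm, are given without the correction for GC content and exon length.

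Among 24 other sympathoadrenal and noradrenergic transcription factors, all tested, 3 were called lower and 2 higher in E8-cSGcm, 8 lower and 3 higher in E8-cDRGcm, and 4 lower and 3 higher in E15.5-mSGcm, with medians of -0.21, -0.20 and -0.0045. LMO3, a LIM-only cofactor, fell in every medium (-0.77, -1.90 and -0.80). NFIL3 and TOX2 rose in E8-cSGcm (0.94 and 0.87) and E8-cDRGcm (1.42 and 1.29) and were at 0.027 and 0.19 in E15.5-mSGcm. The list therefore moved in both directions. Of all genes, 3.86%, 10.9% and 7.27% were called lower in the 3 media, and 4.73%, 9.81% and 6.65% higher.

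Of 9 paralogues of the members, 5 were tested, and 1, 2 and 1 were called lower in the 3 media, none higher, with medians of -0.34, -0.096 and 0.14. INSM2 levels were 250 ± 2.96 CPM in control medium, 175 ± 9.10 in E8-cSGcm, 102 ± 2.79 in E8-cDRGcm and 276 ± 5.82 in E15.5-mSGcm (SD, n = 2), the same order of means as that of ISL1. TBX3, the closest relative of TBX2, fell in E8-cSGcm and E8-cDRGcm (-0.79 and -0.71) but was at 0.23 in E15.5-mSGcm, where TBX2 fell. GATA6 fell in E15.5-mSGcm alone by the call rule, from 15.8 to 5.07 CPM (-1.66 ± 0.17, adjusted p = 3.85e-10), and was at 0.28 and 0.36 in the chick media.

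Genes of partner proteins were examined next. Of the E proteins that dimerize with HAND factors, TCF3, TCF4 and TCF12, 1 was called, TCF12 higher in E15.5-mSGcm (0.66, adjusted p = 2.29e-13). There 6.65% of all genes were called higher. TCF4 was at -0.54, -0.43 and 0.077. TCF3 stood at 0.064, 0.14 and -0.24, and the medians of the 3 were -0.026, 0.14 and 0.077. Among ID and TWIST factors, which compete for E proteins, ID1 rose in both chick media (0.68 and 0.87), and ID2 fell in E8-cDRGcm (-0.63) and rose in E15.5-mSGcm (0.91). TWIST1 was at -0.054, 0.21 and -0.46 and ID4, at under 1 CPM, was not called, and ID3 was listed at 0 in all 8 libraries. The medians of the 4 tested ID and TWIST genes were 0.31, 0.54 and 0.59.

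Of 9 LIM domain and GATA cofactors, 7 were tested and 1, 0 and 2 were called in the 3 media, with medians of 0.026, -0.097 and 0.053. ZFPM1, also known as FOG1, a GATA partner, fell in E15.5-mSGcm (-1.27, adjusted p = 0.000107), LMO4 rose there (0.64), and LDB2, a partner of LIM proteins, rose in E8-cSGcm (0.81). The corepressor proteins that INSM1 recruits, KDM1A, RCOR1, HDAC1 and HDAC2, had no call in any medium. Their values were -0.086, -0.19 and 0.0061 for KDM1A, -0.35, -0.11 and 0.013 for RCOR1, -0.50, -0.47 and -0.028 for HDAC1 and -0.0071, -0.16 and -0.10 for HDAC2, with medians of -0.22, -0.17 and -0.011. Of 14 BMP ligands, receptors and SMADs, upstream of several members, 10 were tested, and the calls were SMAD6, an inhibitory SMAD, higher (0.77), and the receptor BMPR1B lower (-0.61), both in E8-cSGcm, with medians of -0.096, -0.032 and 0.13.

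Genes of the noradrenergic end product were described by 18 differentiation genes, 17 of them tested, with 4 lower and 2 higher in E8-cSGcm, 6 lower and 3 higher in E8-cDRGcm, and 7 lower and 1 higher in E15.5-mSGcm, and medians of -0.11, -0.42 and -0.50. The shares of all genes were 3.86% lower and 4.73% higher, 10.9% and 9.81%, and 7.27% and 6.65%. SLC6A2, the noradrenaline transporter, fell in all 3 media (-1.14, -2.23 and -1.22), as GATA2, HAND1 and TBX2 did. DBH, which makes noradrenaline from dopamine, fell in E8-cSGcm and E8-cDRGcm (-1.11 and -1.96) and was at 0.47 in E15.5-mSGcm. TH, the rate-limiting enzyme of catecholamine synthesis, and the vesicular transporter SLC18A2 fell in E15.5-mSGcm by 3.03 and 3.46 on the log2 scale, and neither was called in the chick media. These values rest on few reads, with 9 counts of TH and 6 to 9 of SLC18A2 per E15.5-mSGcm library. Control libraries had 116 to 138 and 141 to 143. NPY, a neuropeptide of sympathetic neurons, rose in all 3 media (1.30, 2.29 and 1.80).

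The label of the cells was checked against markers. DBH, DDC and CHGB, all noradrenergic or neuroendocrine genes, were present in control medium at 37.4 ± 0.489, 49.7 ± 1.89 and 769 ± 44.8 CPM, TH was low at 8.96 CPM, and CHGA was listed at 0 in all 8 libraries. The summed level of 6 Schwann cell precursor markers was 1.12 to 1.45 CPM in control medium and 2.24 to 4.10 CPM in conditioned media, with SOX10 and FOXD3 among those listed at 0 throughout, and 1 marker, ERBB3, was called higher in E8-cDRGcm and E15.5-mSGcm. For 6 sensory neuron markers the sum was 39.7 to 47.0 CPM in control medium, 5.28 to 6.50 in E8-cSGcm, 3.07 to 3.36 in E8-cDRGcm and 61.9 to 64.9 in E15.5-mSGcm, with NEUROG1 at 0. DRGX alone gave means of 41.3, 4.91, 2.18 and 62.4 CPM in these media. DRGX fell in E8-cSGcm and E8-cDRGcm (-3.06 and -4.23) and rose in E15.5-mSGcm (0.60), and RUNX3, with at most 18 counts, was the other of 2 tested sensory markers called lower in both chick media (-1.90 and -1.62). Most of each sum was DRGX, so that the sums describe this gene more than the marker set. They had the same order of means over the media as ISL1, which marks sensory neurons too. ISL1 changed far less, however, at -0.21, -0.73 and 0.015. GATA2 also fell in both chick media, and a link of these sums to ISL1 or GATA2 was not tested.

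The summed level of 7 mesenchymal markers was 444 to 464 CPM in control medium, 443 to 482 in E8-cSGcm, 496 to 514 in E8-cDRGcm and 419 to 453 in E15.5-mSGcm, with 0 lower and 1 higher, 0 lower and 1 higher, and 1 lower and 2 higher called in the 3 media and medians of 0.26, 0.014 and 0.80. PRRX1, a regulator of the mesenchymal state of neuroblastoma, rose in E15.5-mSGcm from 0.230 to 15.05 CPM, COL1A2 rose there (2.01) while COL1A1 fell (-1.82), and ACTA2 rose in both chick media (1.67 and 1.43). The 5 matched immune, endothelial and erythroid markers summed to at most 0.224 CPM in any library.

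Non-coding genes beside the members were read with caution, since the kit kept strand but the strand option of the counting was not given. The exons of HAND2 and HAND2-AS1 overlap by 867 bases on opposite strands, and those of GATA2 and GATA2-AS1 by 78 bases, so that reads there may be shared between the genes. HAND2-AS1 counts were 36.6% and 39.0% of HAND2 counts in control medium, 35.9% and 30.4% in E8-cSGcm, 34.8% and 36.1% in E8-cDRGcm and 54.0% and 58.6% in E15.5-mSGcm. Where HAND2 was lower, in E15.5-mSGcm, HAND2-AS1 had a log2 fold change of 0.099 (adjusted p = 0.129), beside -0.24 and -0.080 in the chick media.

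ISL1-DT, a transcript that starts beside ISL1, had 422 and 513 counts in control medium, 348 and 365 in E8-cSGcm, 149 and 160 in E8-cDRGcm and 203 and 223 in E15.5-mSGcm. It fell in E8-cDRGcm by 1.53 on the log2 scale (adjusted p = 2.80e-15), from 24.2% and 26.3% of ISL1 counts in control medium to 13.8% and 15.4%. GATA3-AS1 fell there as well (-0.75, adjusted p = 0.000601), with -0.29 and -0.41 in the other media, while GATA3 itself was at -0.23. GATA2-AS1 was at -0.43, -0.56 and 0.26 and TBX2-AS1 at -0.39, -0.58 and -0.32, none of them called. The medians of the 5 non-coding genes were -0.31, -0.58 and -0.32. Per GATA2 count, GATA2-AS1 counts went from 3.33% and 3.09% in control medium to 8.87% and 9.37% in E8-cDRGcm.

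The genes most like each called member in pattern were sought among 11147 tested genes by Pearson's r of log2 CPM over the 8 libraries. These are descriptions over libraries that share media, depth and RNA composition. CCND1, which encodes cyclin D1, came closest to GATA2 (r = 0.9996), with 18360 and 21740 counts in control medium, 7032 and 8181 in E8-cSGcm, 4778 and 4683 in E8-cDRGcm and 7668 and 8046 in E15.5-mSGcm. Its log2 fold changes of -1.32, -2.02 and -0.58 stood beside -1.37, -2.07 and -0.59 of GATA2. PTGER2, a prostaglandin receptor, was the other (r = 0.997), with smaller changes of -0.54, -0.78 and -0.19. ISL1 was most like NREP (r = 0.996) and ZDHHC16 (r = 0.993), and PHOX2A was close to CBLN4 (r = 0.994), a synaptic organizer, at -0.49, -1.05 and -0.46. HAND1 was most like BTBD3 and AMER1 (r = 0.986 and 0.984), and TBX2 most like RGL1 and FZD5 (r = 0.982 and 0.981).

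Among the members themselves, r over the 8 libraries was 0.954 for HAND1 with TBX2, 0.935 for PHOX2A with GATA2, 0.926 for PHOX2A with HAND1 and 0.902 for GATA2 with ISL1. The paralogues were less alike, with r of 0.354 for GATA2 with GATA3 and 0.259 for HAND1 with HAND2. HAND2 had its lowest r with ISL1 (-0.470) and its highest with GATA3 (0.602).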

How the data were processed

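A stranded kit with an input of 50 ng RNA was used, with single reads of 75 bp. The submitters' processing notes name bcl2fastq 2.17.1.14, cutadapt 1.9.1, TopHat2 2.1.0 and HTSeq 0.11.3. The raw counts per Ensembl gene deposited by the authors were used as they stand. The notes name GRCh38, whereas the study's methods name hg19, and the annotation release and strand option are not given in the sources used here. Gene positions, exon lengths and GC content were taken from GENCODE 44 on GRCh37 and promoter windows from RefSeq on GRCh38.p14.

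Counts of all 8 libraries were fitted by group with edgeR 4.0.16 in R 4.3.3 (TMM normalization, filterByExpr, robust quasi-likelihood F test, Benjamini-Hochberg adjustment over 16680 genes). CPM and RPKM were computed from these counts. Log2 CPM for correlations used a prior count of 2. Every library had its own counts (chi-square per gene of 1.78 to 3.64 between replicates, where sampling noise alone gives about 1). An exact permutation test of 2 against 2 libraries cannot go below p = 0.333 and was not used. Total counts of 7930765 to 15060744 set the precision. The 95% intervals come from the edgeR fit and include the spread between libraries, and limits of 3 counts cover counting error only.

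All 8 members were named. From each list up to 5 called genes with a mean of at least 1 CPM were named by the largest log2 fold change in any medium against control, and uncalled genes too where a list has at most 5 genes. The 2 genes most like a member were named for members called in at least 1 medium, among genes with a mean of at least 5 CPM. Some genes that this rule names are not reported here. TUBB, RUNX3, CHGA, DDC and CHGB were given beyond this rule. Members and lists were chosen with earlier results of these data known. Alternatives were DESeq2 1.42.0, size factors by RLE, a minimum of 1 count over all libraries or of 10 counts in each, fits of the compared groups only, no fold criterion, a replicate block, thinning to the smallest total, correction for GC content and exon length by splines with 5 degrees of freedom, with and without the block, and leaving out each library. The fitting was tested on simulated data. Figures were drawn with matplotlib 3.10.9.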

Additional observations from a re-analysis of the deposited data

How the results depend on the processing

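Of 714 log2 fold changes of single members recomputed under the alternatives, 676 kept direction and call, 11 lost a call, 7 gained one and 20 changed sign, all 20 of them for values that were not called. The call of GATA2 in E15.5-mSGcm against control was the least stable, lost under 9 of 17 alternatives, with values from -0.64 to -0.33.

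At the adjusted p alone, the members lower against control were 6 in E8-cSGcm and 6 in E15.5-mSGcm instead of 3 each. Of all genes, 15.2% and 20.0% were lower there. In E8-cDRGcm they were 6 instead of 5 (24.7% of all genes). Between media they were 4 lower in E8-cDRGcm than in E8-cSGcm (15.47% of all genes), 1 lower and 2 higher in E15.5-mSGcm than in E8-cSGcm (25.9% and 23.9%), and 2 lower and 4 higher in E15.5-mSGcm than in E8-cDRGcm (26.8% and 25.8%). Correction for GC content and length left 1 member called lower in E15.5-mSGcm against control (5.80% of all genes), and again 1 together with the replicate block (5.76%). The cause was not tested. Leaving out the first E8-cSGcm library moved PHOX2A to -0.60 in E8-cDRGcm against E8-cSGcm. Where a group was left with 1 library, it was assumed to vary like the others.

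The values that changed sign all lay near 0. For E15.5-mSGcm against E8-cSGcm, the filter at 1 count gave -0.042 for PHOX2A and -0.0063 for TBX2, and the GC and length correction gave 0.099 for HAND1 and 0.10 for GATA3 (0.099 and 0.10 with the replicate block). The correction moved PHOX2A to 0.46 and TBX2 to 0.39 in that comparison without a change of sign. For ISL1 in E15.5-mSGcm against control they gave -0.041 and -0.029 (-0.030 with the block), and thinning gave -0.023. TBX2 in E8-cDRGcm against E8-cSGcm was at 0.016 with the correction and 0.016 with the block added. Without single libraries PHOX2A in E15.5-mSGcm against E8-cSGcm ranged from -0.065 to 0.096, HAND2 from -0.11 to 0.028 in E8-cSGcm and from -0.026 to 0.047 in E8-cDRGcm against control and from -0.015 to 0.12 between the chick media, and ISL1 in E15.5-mSGcm against control from -0.062 to 0.077.

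Replicate numbers did not pair the libraries, since deviations of same-numbered libraries correlated at -0.044 to 0.042 between groups. With the replicate block 3, 5 and 3 members were called lower against control, as without it. Of the 16680 tested genes, 643, 1818 and 1203 were called lower with the block.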
